A study of Mus musculus with 12 samples.

Results

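Transcripts of 8 genes, 4 of dopamine receptors and 4 of striatal neurons, were examined in the prefrontal cortex (PFC) of mice raised with or without a microbiota. They were chosen by name, as the dopamine receptor genes Drd1, Drd2, Drd4 and Drd5 and the medium spiny neuron genes Adora2a, Pde10a, Ppp1r1b and Rgs9, and all 8 were found among the 41388 genes of the count table. The libraries came from the hand-dissected medial PFC of male Swiss Webster mice aged 10 weeks, with 4 libraries from conventionally raised (CON) mice, 4 from germ-free (GF) mice that had no microbiota throughout life, and 4 from exGF mice, which were born germ-free and were colonized from postnatal day 21 by being housed beside CON mice. Each library was made from polyA RNA pooled in equal amounts from 2 to 3 animals, so it carries the mean of those animals and no value of a single mouse. The exGF libraries are named GFR1 to GFR4 as in the count table, which does not tie them to the numbered exGF samples. The comparisons ask whether dopamine receptor and striatal neuron transcripts differed with colonization status.

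Dopamine acts through 2 families of receptors. D1-like receptors (Drd1, Drd5) raise cyclic AMP and D2-like receptors (Drd2, Drd3, Drd4) lower it. In the striatum the medium spiny neurons that carry Drd1 and those that carry Drd2 together with the adenosine receptor gene Adora2a form separate output pathways, and both kinds contain the phosphodiesterase Pde10a, the phosphatase inhibitor DARPP-32 (Ppp1r1b) and the G-protein regulator Rgs9. The PFC is reached by dopamine fibres and expresses the receptors at lower levels in its pyramidal cells and interneurons.

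Counts assigned to genes ranged from 13280926 in GF replicate 1 to 29134760 in CON replicate 3. Markers of cortical excitatory neurons were present at a summed 1965 to 2302 CPM over the 12 libraries, so the defining cells of the labelled tissue were there. CPM are counts per 1000000 counts on genes, after the library sizes were scaled by TMM, edgeR's default for differences in composition. CON replicate 2 and GFR4 stood apart from the other 10 libraries for several of the 8 genes, so each comparison is given with and without them. That choice was made after the data were seen. Within a group, the counts of 2 libraries differed far beyond counting error, with a chi-square per gene that averaged 8.86 to 39.7 for the pairs. The labels do not say that the libraries of a group came from separate litters or cages, so p-values measure the spread between these pools.

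Levels of different genes were compared as CPM per kilobase of exon. Ppp1r1b was the most abundant of the 8, with a median of 30.3 CPM per kilobase over the 12 libraries, followed by Pde10a at 4.34, Drd1 at 4.13 and Rgs9 at 2.34. Adora2a had a median of 0.705, Drd2 of 0.532, Drd5 of 0.358 and Drd4 of 0.0800 CPM per kilobase. The ranges over libraries of neighbours in this order overlapped for Pde10a and Drd1 (3.19 to 5.38 and 2.43 to 5.98), for Drd1 and Rgs9 (1.77 to 6.41), for Rgs9 and Adora2a, and for Adora2a, Drd2 and Drd5 (0.446 to 3.18, 0.175 to 2.55 and 0.175 to 0.596). Ppp1r1b, at 25.0 to 54.2, did not overlap with the next gene, and Drd4, at 0.0201 to 0.132, lay under every value of Drd5. The place of Drd5 is uncertain: per kilobase of exon that it shares with no other gene its median was 0.695, above Drd2. Drd1 was the leading dopamine receptor transcript of this tissue in all 12 libraries.

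The promoters of genes that the results below turn on are shown. Drd2 and Rgs9 were both high in CON replicate 2 and GFR4, and Drd1 had a smaller span over the 12 libraries. Whether the start regions have a part in this was not tested. Each is the RefSeq window of 300 bases, from 250 before the transcript start to 50 after it, on GRCm38.p6 and on the gene's own strand. Capitals mark every match to a GC box (GGGCGG) or a TATA box (TATAAA) on either strand, a GC box on the other strand being read as CCGCCC. The Drd2 window lies on the plus strand at chr9:49340153-49340452, the Rgs9 window on the minus strand at chr11:109298132-109298431 and the main Drd1 window on the minus strand at chr13:54055609-54055908.
Drd2: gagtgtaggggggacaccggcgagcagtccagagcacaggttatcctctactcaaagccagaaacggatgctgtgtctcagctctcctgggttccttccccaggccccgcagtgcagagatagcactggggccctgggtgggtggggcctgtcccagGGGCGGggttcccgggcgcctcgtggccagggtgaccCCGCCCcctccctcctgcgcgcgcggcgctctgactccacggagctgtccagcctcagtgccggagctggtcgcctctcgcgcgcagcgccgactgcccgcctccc
Rgs9: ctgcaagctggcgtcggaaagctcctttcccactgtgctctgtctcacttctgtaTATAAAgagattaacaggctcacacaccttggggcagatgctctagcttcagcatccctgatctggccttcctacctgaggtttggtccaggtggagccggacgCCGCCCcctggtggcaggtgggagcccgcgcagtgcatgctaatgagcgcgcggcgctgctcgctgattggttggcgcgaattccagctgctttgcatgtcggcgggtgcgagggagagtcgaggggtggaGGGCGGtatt
Drd1: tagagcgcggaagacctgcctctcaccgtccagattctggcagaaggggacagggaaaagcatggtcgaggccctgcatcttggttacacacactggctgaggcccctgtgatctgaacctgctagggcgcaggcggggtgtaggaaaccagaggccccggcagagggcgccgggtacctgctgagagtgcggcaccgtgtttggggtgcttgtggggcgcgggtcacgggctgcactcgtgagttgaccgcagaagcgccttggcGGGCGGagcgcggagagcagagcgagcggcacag
Promoter entries were matched for 6 of the 8 genes, Drd1 and Pde10a with 2 each. All 8 windows held a GC box, which 35.66% of all 32851 mouse promoters in the table held, and the Rgs9 window alone held TATAAA, found in 13.62% of all promoters. None held the full cyclic AMP response element TGACGTCA, found in 1.79%. The GC content was 70.33% for Drd2, 60.33% for Rgs9 and 65.67% for Drd1, against a median of 52.67% over all promoters. These matches describe letters and say nothing of factor binding.

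Drd1 (ENSMUSG00000021478, GRCm38 chromosome 13, 54051183 to 54055705, minus strand) encodes the D1 receptor, the main stimulatory dopamine receptor. CON replicates 1 to 4 had 15.4, 16.6, 11.6 and 14.2 CPM, GF replicates 1 to 4 had 12.05, 14.6, 15.8 and 16.4 CPM, and GFR1 to GFR4 had 16.4, 11.5, 8.80 and 21.7 CPM. The 3 groups overlapped, with means of 14.4 ± 2.12, 14.7 ± 1.92 and 14.6 ± 5.67 CPM (SD, n = 4 each), and both the lowest and the highest library were exGF.

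Drd5 (ENSMUSG00000039358, chromosome 5, 38319367 to 38322518, plus strand), the other D1-like receptor, is a low transcript with 10 to 44 counts per library. It was measured at 1.64, 1.88, 1.13 and 1.64 CPM in CON, at 1.04, 1.03, 1.13 and 0.551 CPM in GF and at 1.20, 0.907, 0.565 and 1.33 CPM in GFR1 to GFR4. The lowest CON library and the highest GF library met at 1.13 CPM, so that the groups touched, and 2 of the 4 exGF libraries lay below all CON libraries. Of the exon bases of Drd5, 48.57% are shared with the antisense gene Gm26560, and because counting ignored strand, reads of the pair cannot be told apart there and its level per length depends on how they were assigned.

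Drd2 (ENSMUSG00000032259, chromosome 9, 49340627 to 49408177, plus strand) encodes the D2 receptor, the target of antipsychotic drugs. The CON libraries had 0.533, 5.38, 1.06 and 1.26 CPM, the GF libraries 0.446, 1.75, 1.45 and 1.65 CPM and GFR1 to GFR4 1.62, 0.993, 0.989 and 6.50 CPM. CON replicate 2 and GFR4 were the only libraries above 2 CPM, and the other 10 overlapped across groups. Drd2 was the most variable of the 8 genes, with a 14.6-fold span from 6 counts in GF replicate 1 to 191 counts in GFR4. Drd4 (ENSMUSG00000025496, chromosome 7, 141292006 to 141296464, plus strand), the D2-like receptor best known from the cortex, had only 2 to 10 counts in any library and did not pass the filter on low counts, so no difference between groups was detectable at this depth. Its mean was 0.202 ± 0.101 CPM in CON mice, 0.354 ± 0.0957 CPM in GF mice and 0.203 ± 0.126 CPM in exGF mice (SD, n = 4 each). The last D2-like receptor gene, Drd3, had 0 counts in 9 libraries, 3 in GF replicate 1, 1 in GF replicate 4 and 16 in GFR4.

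Adora2a (ENSMUSG00000020178, chromosome 10, 75316877 to 75334784, plus strand) encodes the striatal adenosine receptor that opposes D2 signalling in the same neurons. It was measured at 1.89, 9.73, 1.36 and 2.10 CPM in CON, at 1.64, 3.40, 1.77 and 2.203 CPM in GF and at 3.94, 2.12, 2.54 and 9.16 CPM in GFR1 to GFR4. The high libraries were again CON replicate 2 and GFR4, and the next highest were GFR1 and GF replicate 2. Rgs9 (ENSMUSG00000020599, chromosome 11, 109225355 to 109298129, minus strand), whose product shortens signals of dopamine and opioid receptors, showed the same pair: 11.3, 41.0, 15.5 and 14.2 CPM in CON, 14.4, 11.6, 17.2 and 15.5 CPM in GF and 15.5, 14.4, 14.2 and 29.2 CPM in GFR1 to GFR4. Apart from these 2 libraries Rgs9 stayed between 11.3 and 17.2 CPM.

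Ppp1r1b (ENSMUSG00000061718, chromosome 11, 98348404 to 98357796, plus strand) encodes DARPP-32, which integrates dopamine and glutamate signals by inhibiting protein phosphatase 1. Its libraries had 88.7, 143, 82.0 and 73.1 CPM in CON, 105, 81.6, 103 and 88.8 CPM in GF and 91.6, 79.7, 83.6 and 159 CPM in GFR1 to GFR4. CON replicate 2 and GFR4 were highest, by a smaller margin than for Drd2, and the other 10 overlapped. Of its exon bases, 15.71% are shared with 1700003D09Rik on the opposite strand. Pde10a (ENSMUSG00000023868, chromosome 17, 8525372 to 8986648, plus strand), which degrades cyclic AMP and cyclic GMP in both kinds of medium spiny neuron, had 41.0, 61.9, 69.1 and 55.7 CPM in CON, 55.6, 55.8, 47.1 and 43.7 CPM in GF and 50.6, 68.5, 60.6 and 65.6 CPM in GFR1 to GFR4. Neither CON replicate 2 nor GFR4 was its highest library, as also for Drd4, and its span over the 12 libraries was the smallest of the 8, at 1.69-fold.

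**Figure D1:**
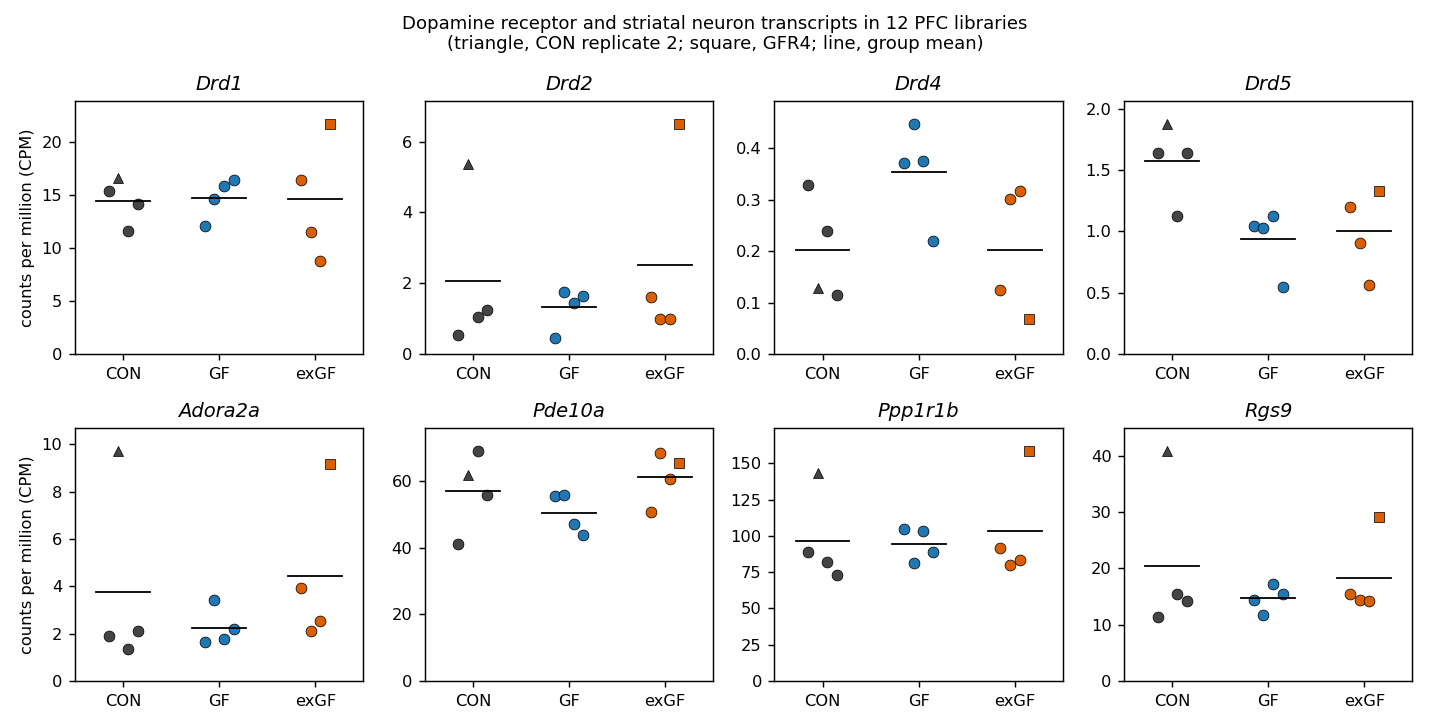
Level of each of the 8 genes in CPM (y axis, linear, from 0) in the CON, GF and exGF libraries (x axis), with a point per library and a line at the group mean. CON replicate 2 (triangle) and GFR4 (square) lie far above the other 10 libraries for Drd2, Adora2a and Rgs9, above them for Ppp1r1b, and among them for Pde10a.

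None of the dopamine receptor or striatal neuron genes passed the test between GF and CON mice. In the quasi-likelihood test of edgeR, with p-values adjusted after Benjamini-Hochberg, 0 of the 7 tested genes had an adjusted p under 0.1, where 0.251% of all 15542 tested genes did. DESeq2 called 0 of them as well, where it called 204 of 17106 genes. By edgeR, 1 of the 7 (Drd5) had an unadjusted p under 0.05, as had 8.69% of all genes tested. Drd5 was lower in GF, at 0.937 ± 0.262 CPM against 1.57 ± 0.317 CPM in CON (SD, n = 4 each), a log2 fold change of -0.74 (SE 0.30, edgeR adjusted p = 0.499, 95% interval -1.38 to -0.09), with 3 of 4 GF libraries below every CON library. The D2-pathway genes Drd2 and Adora2a, and Rgs9, which both pathways express, had negative values with wide intervals, Drd2 at -0.58 (-1.84 to 0.68), Adora2a at -0.70 (-1.83 to 0.43) and Rgs9 at -0.48 (-1.16 to 0.20). Drd1 at 0.03 (-0.26 to 0.32), Ppp1r1b at -0.03 (-0.40 to 0.34) and Pde10a at -0.17 (-0.47 to 0.13) were measured more closely. The median log2 fold change of the 7 was -0.48, against 0.01 over all genes tested.

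Without CON replicate 2 the signs of Drd2, Adora2a, Rgs9 and Ppp1r1b turned. Drd2 became 0.51 (-0.41 to 1.42), Adora2a 0.36 (-0.28 to 1.01), Rgs9 0.10 (-0.23 to 0.43) and Ppp1r1b 0.22 (-0.01 to 0.45), while Drd5 stayed at -0.64 (-1.35 to 0.07). The median of the 7 moved to 0.11, and again 0 of 7 had an adjusted p under 0.1, with 0.279% of 15766 genes called. The negative values for Drd2, Adora2a and Rgs9 in GF therefore rested on 1 CON library. In bulk tissue, fewer cells of a type and less RNA per cell cannot be told apart.

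In exGF against CON mice, 0 of the 7 genes were called by edgeR and 0 by DESeq2. Over all genes, edgeR called 0.0696% of 15813 and DESeq2 called 60 of 22751. By edgeR, 1 of the 7 (Drd5) had an unadjusted p under 0.05, as had 5.33% of all genes tested. Drd5 was at 1.001 ± 0.340 CPM in exGF (SD, n = 4), a log2 fold change of -0.65 against CON (SE 0.30, edgeR adjusted p = 0.924, interval -1.298 to -0.003). Both comparisons of Drd5 use the same CON libraries. Drd2 was at 0.32 (-1.18 to 1.83), Adora2a at 0.25 (-1.02 to 1.52), Rgs9 at -0.16 (-0.95 to 0.62), Drd1 at 0.01 (-0.48 to 0.50), Ppp1r1b at 0.09 (-0.42 to 0.60) and Pde10a at 0.10 (-0.22 to 0.42). The median of the 7 was 0.09, against -0.01 over all genes tested.

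Leaving out both CON replicate 2 and GFR4 narrowed the intervals of Drd1, Drd2, Adora2a, Ppp1r1b and Rgs9 and widened those of Drd5 and Pde10a. Drd2 stayed at 0.33 (-0.49 to 1.16), Drd5 at -0.71 (-1.47 to 0.04), Pde10a at 0.13 and Ppp1r1b at 0.08, whereas Rgs9 moved to 0.12 and Drd1 to -0.16. Adora2a moved to 0.70 (SE 0.28, interval 0.08 to 1.32, edgeR adjusted p = 0.845). The 3 exGF libraries left were at 2.12 to 3.94 CPM and the 3 CON libraries at 1.36 to 2.10 CPM. Both libraries left out were those farthest from the median of Adora2a, so this value comes from a set chosen in part on the same gene. Adora2a was the 1 gene of the 7 with an unadjusted p under 0.05, which 5.61% of all genes tested had. Again 0 of 7 were called, with 0.107% of 15858 genes called.

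Between exGF and GF mice edgeR called 0 of the 7 genes and 0 of all 15569 genes tested (0%), with 514 genes higher and 521 lower at an unadjusted p under 0.05. DESeq2 called 21 of 17742 genes, of which 0 were among the 7. Adora2a was at 4.44 ± 3.24 CPM in exGF and 2.25 ± 0.803 CPM in GF (SD, n = 4 each), a log2 fold change of 0.96 (SE 0.42, edgeR adjusted p = 0.739, interval 0.07 to 1.86). Pde10a was at 61.3 ± 7.85 and 50.5 ± 6.11 CPM, a log2 fold change of 0.28 (SE 0.11, edgeR adjusted p = 0.736, interval 0.03 to 0.53). These were the 2 genes with an unadjusted p under 0.05, which 6.65% of all genes tested had. Drd2 was at 0.91 (-0.34 to 2.15), Rgs9 at 0.33 (-0.14 to 0.79), Ppp1r1b at 0.13 (-0.27 to 0.53), Drd5 at 0.10 (-0.64 to 0.83) and Drd1 at -0.01 (-0.49 to 0.47). Without GFR4, Adora2a moved to 0.32 (-0.33 to 0.97), Drd2 to -0.18 (-1.04 to 0.67) and Rgs9 to 0.00 (-0.29 to 0.30), while Pde10a kept 0.25 (-0.02 to 0.52). The count of called genes among the 7 was again 0, with 0.0381% of 15728 genes called.

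**Figure D2:**
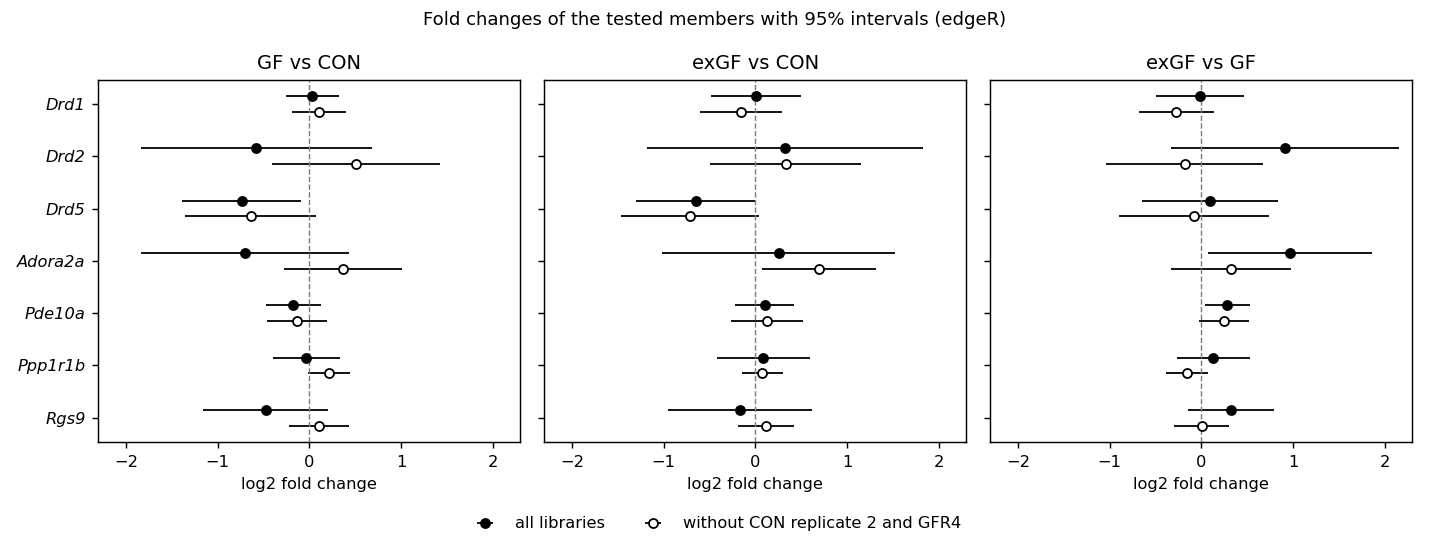
Log2 fold change (x axis) of the 7 tested genes (y axis) in the 3 comparisons, with 95% intervals from edgeR, for all libraries (filled) and without CON replicate 2 and GFR4 where they enter the comparison (open). Drd2 and Adora2a have the widest intervals with all libraries in each comparison, and in GF against CON the values of Drd2, Adora2a and Rgs9 turn from -0.58, -0.70 and -0.48 to 0.51, 0.36 and 0.10 without CON replicate 2.

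The size of the departure in CON replicate 2 and GFR4 differed from gene to gene. CON replicate 2 had 5.15 times the median Adora2a level of the other 3 CON libraries, 5.08 times for Drd2, 2.89 times for Rgs9 and 1.75 times for Ppp1r1b, but 1.17 times for Drd1, 1.15 times for Drd5 and 1.11 times for Pde10a. GFR4 had 6.55 times the Drd2 level of the other 3 exGF libraries, 3.60 times for Adora2a, 2.03 times for Rgs9, 1.90 times for Ppp1r1b, 1.88 times for Drd1, 1.46 times for Drd5 and 1.08 times for Pde10a. Among the 7 tested genes, the ratios were largest for Drd2 and Adora2a and smallest for Pde10a in both libraries. Drd4, too low for a test, was at 0.54 times the median in CON replicate 2 and 0.23 times in GFR4. The Drd2 ratios stand on low medians, of 1.06 CPM in CON and 0.993 CPM in exGF. In CPM, Ppp1r1b departed more, at 143 against 82.0 in CON and 159 against 83.6 in exGF. The ratio of Drd1 to Drd2 per kilobase was 2.17 in CON replicate 2 and 2.34 in GFR4, and 5.87 to 20.3 in the other 10 libraries.

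These 2 libraries were singled out for their levels of these genes, so the ratios describe that choice. Other genes of striatal neurons were high there too. Of the 19 tested genes of that list of 23, 16 were highest in CON replicate 2 among the CON libraries and 16 in GFR4 among the exGF libraries, where 31.9% and 28.8% of all tested genes were. Penk, the enkephalin precursor of D2-pathway neurons, had 143 CPM in CON replicate 2 and 54.9 to 64.6 CPM in the other CON libraries, and 122 CPM in GFR4 against 61.1 to 87.0 CPM in the other exGF libraries. Tac1, the substance P precursor of D1-pathway neurons, had 33.0 CPM against 12.6 to 14.6 CPM in CON, and 26.7 CPM against 9.46 to 15.7 CPM in exGF. As ratios to the median of the other libraries of the group, Penk had 2.55 in CON replicate 2 and 1.76 in GFR4, and Tac1 2.48 and 2.07. Other D1-pathway genes differed from Tac1: Pdyn, the dynorphin precursor, had 1.30 and 1.32. The muscarinic receptor gene Chrm4 had 0.85, below the median, and 1.44. The transcription factor genes Six3 and Isl1, which act in the formation of striatal neurons, had few counts outside these libraries. Six3 had 46 counts in CON replicate 2, 54 in GFR4 and 0 to 11 elsewhere, and Isl1 had 32, 34 and 0 to 9 counts. The list of cortical excitatory neurons did not share this, with 1 of 10 genes highest in CON replicate 2 and 3 of 10 in GFR4 and median ratios of 0.92 and 0.98.

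Markers of further cell types moved with these libraries in part. All 7 oligodendrocyte genes were tested; 5 were highest in CON replicate 2 and 6 in GFR4, with median ratios of 1.17 and 1.60 to the other libraries of the group. Septum and olfactory bulb genes had median ratios of 1.38 and 1.52 over 5 tested genes, and the 2 tested genes of cholinergic neurons had 0.81 and 2.23. Choroid plexus genes had 1.12 and 2.18, and the summed level of that list was 3.49 to 14.95 CPM over all libraries. The part of these cells in the values of Drd2, Adora2a and Rgs9 was not tested.

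**Figure D3:**
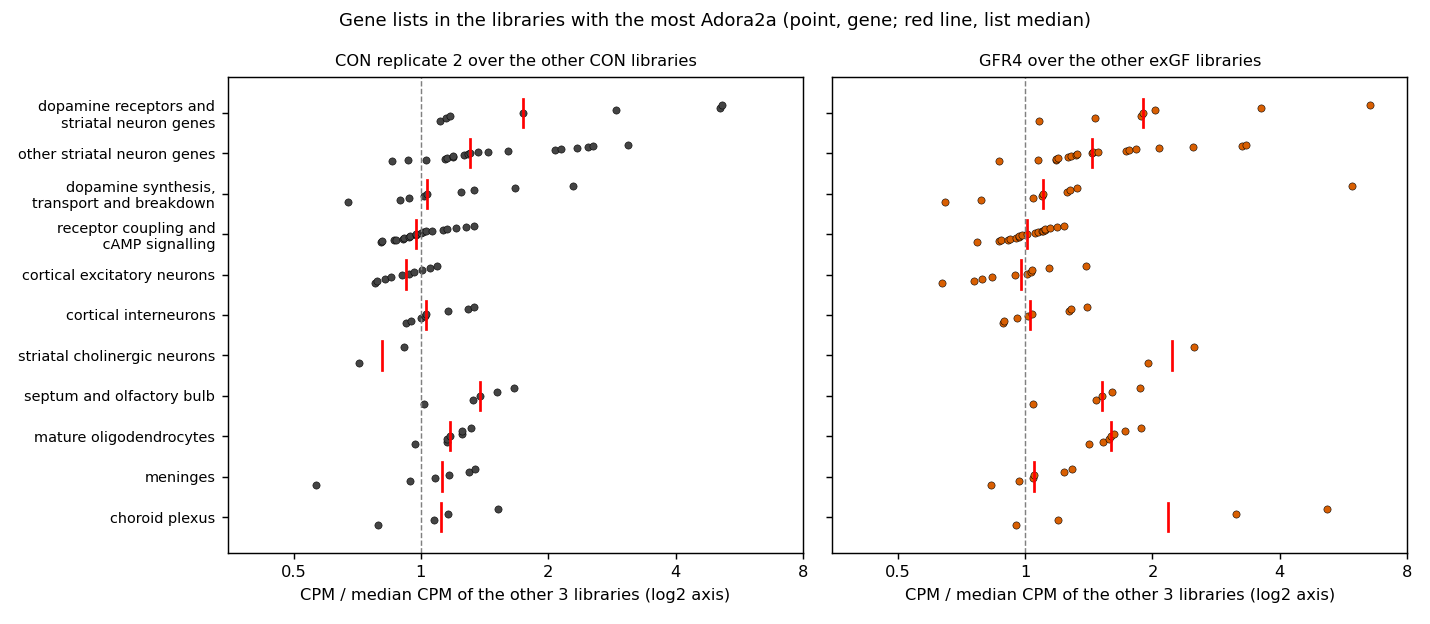
Ratio of each gene's CPM in CON replicate 2 (left) or GFR4 (right) to the median of the other 3 libraries of its group (x axis, log2 scale) for the tested genes of 11 lists (y axis), with a red line at the list median. The dopamine receptor and striatal neuron genes have the median 1.75 in CON replicate 2 and 1.90 in GFR4, the other striatal neuron genes 1.30 and 1.44, and the cortical excitatory neuron genes lie around 1.

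Adora2a was used as the measure against which the other genes were set, in a single fit over all genes with the groups as terms, so that only differences between libraries of a group count. Over the 12 libraries, the level of 13 genes of 16031 (0.0811%) rose with Adora2a at an adjusted p under 0.1, and 2 of the 6 tested members were among them. Drd2 had a slope of 1.12 (SE 0.14, edgeR adjusted p = 0.00406) and Rgs9 of 0.51 (SE 0.09, edgeR adjusted p = 0.0451), in log2 units per log2 unit of Adora2a. Ppp1r1b had 0.32 (SE 0.07, edgeR adjusted p = 0.154), Drd1 0.27 (SE 0.08, edgeR adjusted p = 0.261), Drd5 0.23 (SE 0.14, edgeR adjusted p = 0.518) and Pde10a 0.02 (SE 0.07, edgeR adjusted p = 0.927). Over these libraries Drd2 followed Adora2a nearly in proportion and Pde10a hardly at all.

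Among the 10 other genes whose levels were most like Adora2a, by the smallest p of a positive slope, were Serpina9, Penk, Tac1, Lrrc10b, Necab2, Gng7, Tmem98, Ecel1 and Gpr6. Penk, Tac1, Gng7 and Gpr6 belong to the list of other striatal neuron genes, in which 5 of 19 tested genes were called and all 19 slopes were above 0, with a median of 0.17 against 0.00 over all genes. Serpina9 had 5.55 CPM in CON replicate 2, 2.72 CPM in GFR4 and a median of 0.406 CPM in the other 10 libraries.

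The relation rested on CON replicate 2 and GFR4, which lay farthest from the median of Adora2a. Without them 0 members were called, although 62 of 16137 genes (0.384%) rose with Adora2a, and over these 10 libraries, with Adora2a between 1.36 and 3.94 CPM, the slope was 0.74 for Drd2, 0.39 for Drd1, 0.37 for Drd5, -0.25 for Rgs9, -0.25 for Pde10a and -0.15 for Ppp1r1b, with edgeR adjusted p of 0.361 to 0.730. Without CON replicate 2 alone, 0 of 16259 genes were called in either direction. Without GFR4 alone, 4 of 16191 were called, with 0 members among them.

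**Figure D4:**
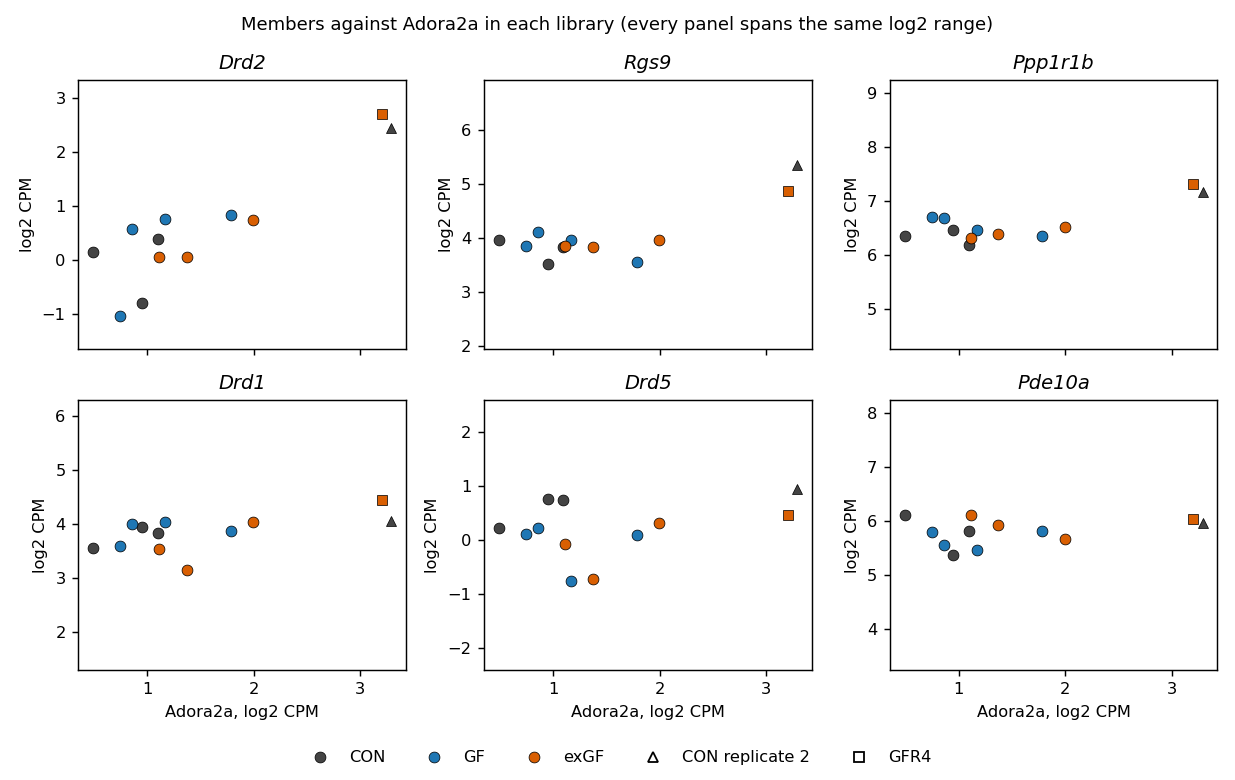
Level of 6 of the genes (y axis, log2 CPM, equal span in each panel) against that of Adora2a (x axis, log2 CPM) in the 12 libraries, coloured by group. CON replicate 2 (triangle) and GFR4 (square) stand alone at the right, where Drd2 and Rgs9 are high too, and among the other 10 libraries no line is seen for Rgs9, Ppp1r1b or Pde10a.

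Of the remaining striatal neuron genes, 1 was called in any comparison. Scn4b, a sodium channel subunit of medium spiny neurons, was at 54.6 ± 6.74 CPM in CON, 85.7 ± 22.5 CPM in GF and 93.0 ± 11.9 CPM in exGF (SD, n = 4 each). It rose in exGF against CON by a log2 fold change of 0.76 (SE 0.11, edgeR adjusted p = 0.0307), where 0.0696% of all genes tested were called. In GF against CON it was at 0.65 (SE 0.16, edgeR adjusted p = 0.160). Its slope on Adora2a was 0.00 (SE 0.08), so Scn4b did not share the pattern of CON replicate 2 and GFR4. The largest values in the rest of the list were in GF against CON, for Gpr6 at -1.09 (SE 0.43, edgeR adjusted p = 0.478) and for the retinoid receptor gene Rxrg at -1.08 (SE 0.31, edgeR adjusted p = 0.269). Over the list, the median log2 fold change was -0.14 in GF against CON, -0.01 in exGF against CON and 0.12 in exGF against GF, and without CON replicate 2 and GFR4 these were -0.01, -0.01 and 0.00.

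Genes that make, move or break down dopamine were low or steady. None of the 8 tested genes of this list was called by edgeR in any comparison, with 0 at an unadjusted p under 0.05, and the list's median was 0.19 in GF against CON and 0.02 in exGF against CON. The largest values were those of Th, the rate-limiting enzyme of dopamine synthesis, at -0.53 (SE 0.35) in GF and -0.48 (SE 0.31) in exGF, with 3.95 ± 1.74, 2.73 ± 1.18 and 2.85 ± 0.788 CPM in CON, GF and exGF (SD, n = 4 each). Ddc, the decarboxylase of the pathway, was at 0.35 (SE 0.21) and 0.12 (SE 0.22), and Dbh, which converts dopamine to noradrenaline, at -0.29 (SE 0.37) and -0.21 (SE 0.28).

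The G proteins, kinases, phosphatases and other partners through which these receptors signal were abundant, at a summed 5229 to 5831 CPM, and 0 of 19 were called by edgeR in any comparison. In GF against CON, 2 of the 19 were higher and 2 lower at an unadjusted p under 0.05, which 8.69% of all genes tested had. The list's median was 0.05. The phosphatase subunit Ppp1cb had the largest value there, 0.38 (SE 0.18), followed by the arrestin Arrb2 at -0.25 (SE 0.11) and the inhibitory G-protein subunit Gnai1 at 0.24 (SE 0.11). GF replicate 2 had 355 CPM of Ppp1cb, the other GF libraries 163 to 230 CPM and the CON libraries 170 to 192 CPM. It was also the highest library for Gnai1, at 172 CPM. In exGF against CON, Ppp1cb, Arrb2 and Gnai1 were at 0.01, -0.09 and 0.01.

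Lists of neighbouring cells were measured beside these results. In GF against CON, 5 of 7 oligodendrocyte genes were called higher (among them Mobp, Mal, Mbp and Mog, at log2 fold changes of 0.82 to 0.99) and 2 of 6 meningeal genes lower (Slc6a13 at -0.94 and Col1a2 at -0.69). Of all 15542 tested genes, 0.251% were called and 8.69% had an unadjusted p under 0.05. Septum and olfactory bulb genes had a median of -0.80 with 0 of 5 called and 4 at an unadjusted p under 0.05, led by Cdhr1 at -1.08 and Zic4 at -0.84. The summed level of that list was 37.2 to 48.7 CPM in CON, 20.6 to 36.8 CPM in GF and 23.5 to 37.4 CPM in exGF. No gene of the cortical neuron lists was called, the largest values being those of Rorb at 0.21, Neurod2 at 0.19 and Tle4 at -0.19 among excitatory genes and Pvalb at 0.41, Npy at 0.28 and Sst at 0.12 among interneuron genes. Chat, the marker of cholinergic neurons, was at 0.331 ± 0.128 CPM in CON and 0.519 ± 0.136 CPM in GF (SD, n = 4 each), from 4 to 13 counts per library. Its log2 fold change was 0.63 (SE 0.42, edgeR adjusted p = 0.715), and Slc5a7, also tested in that list, was at -0.11 (SE 0.35). The part of these differences in the values of Drd5, Drd2, Adora2a and Rgs9 was not tested.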

How the data were processed

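Libraries were prepared and sequenced by an outside service with a stranded mRNA kit, from RNA with integrity numbers above 8. Per the labels and methods, reads were trimmed (Trimmomatic 0.32), aligned to GRCm38.p3 (STAR) and assigned to Ensembl genes by HTSeq 0.6.0, which was run without regard to strand. The deposited values are raw counts per gene with no normalization. Pairs given to no gene, to several genes or to several places (4.57% to 7.31%, 1.10% to 1.32% and 13.0% to 19.2% of the pairs) were left out of library sizes and tests. The 4 columns named GFR were taken as the exGF libraries, since these were the only samples left.

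Each pair of groups was fitted with edgeR 4.0.16 (R 4.3.3) by its quasi-likelihood test, with TMM scaling and the filterByExpr filter, on the libraries of both groups alone, and p-values were adjusted by Benjamini-Hochberg over all genes tested. The authors used DESeq2 1.6.2 pairwise with an adjusted p of 0.1, and that threshold was kept. DESeq2 1.42.0, other scalings and filters, limma-voom 3.58.1 and leaving out libraries were the alternatives. CPM use TMM-scaled library sizes over 12 libraries and are given per kilobase of GENCODE M21 exons where genes were compared. The slope on Adora2a used its log2 CPM (prior count 1). Standard errors are the log2 fold change divided by the square root of its F value. The code was tested on simulated counts. A chi-square over genes was used to look for libraries deposited more than once.

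The 8 genes and the gene lists were chosen with earlier results of these data known. Named are the 8 genes, genes of a list called in any comparison, the 3 of each list with the largest change against CON, and the 10 genes most like Adora2a. Some genes that this rule names are not reported here. Serpina9, Drd3, Six3, Isl1, Pdyn and Chrm4 were given values after these were seen. Gpr52 and Pde2a, listed too, were not analysed here.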

Additional observations from a re-analysis of the deposited data

Results flagged for a closer look

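In 10 of 54 sets of 4 libraries, 1 library lay farther from the nearest of the others than Dixon's 95% critical value for 4 samples allows, where chance alone gives about 1 in 20. Of the 10 sets, 4 were in CON, where CON replicate 2 was the high library: Drd2 at 5.38 CPM, Adora2a at 9.73 CPM, Rgs9 at 41.0 CPM and the summed other striatal neuron genes at 1157 CPM. In exGF, GFR4 was the high library in 3 sets, with Drd2 at 6.50 CPM, Ppp1r1b at 159 CPM and Rgs9 at 29.2 CPM. The genes of these sets are not independent, since they vary together.

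In GF, GF replicate 4 was low for Drd5, at 0.551 CPM from 10 counts. GF replicate 2 was high for the summed receptor coupling and cyclic AMP genes, at 5831 CPM, and GF replicate 1, the shallowest library, was high for the summed choroid plexus genes, at 14.95 CPM. Of that sum, 9.30 CPM came from Ttr alone, which had 0.124 to 2.58 CPM in the other libraries. What sets these libraries apart was not tested.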

How the results depend on the processing

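Under every alternative tried, 0 of the 8 genes were called in each of the 3 comparisons, and the lowest edgeR or DESeq2 adjusted p of any refit was 0.222. Of 266 refitted fold changes, 235 kept their sign and 31 reversed, none past the threshold. With both CON replicate 2 and GFR4 left out, a setting chosen after the data were seen, exGF against CON turned for Drd1 (-0.16) and Rgs9 (0.12). The replicate block gave 0 called genes and 0.0136 for Ppp1r1b in GF against CON, its only change of sign; the replicate numbers do not pair the libraries, since same-numbered CON and GF libraries deviated together with r of -0.0321, -0.0539, -0.0434 and 0.0258. No paired fit was made with exGF, whose columns carry no sample number. With 1 library left out in turn, GF against CON ranged from -0.0608 to 0.11 for Drd1, -0.89 to 0.51 for Drd2, -0.99 to 0.36 for Adora2a, -0.15 to 0.22 for Ppp1r1b and -0.68 to 0.10 for Rgs9. In exGF against CON the ranges were -0.23 to 0.19 for Drd1, -0.75 to 1.42 for Drd2, -0.37 to 1.33 for Adora2a, -0.0177 to 0.21 for Pde10a, -0.18 to 0.35 for Ppp1r1b and -0.46 to 0.42 for Rgs9. In exGF against GF they were -0.27 to 0.17 for Drd1, -0.18 to 1.18 for Drd2, -0.0916 to 0.30 for Drd5 and -0.15 to 0.24 for Ppp1r1b. Leaving out a library gave 0 to 3 members associated with Adora2a, where 2 were found with all libraries. Over all genes, these fits called 0 to 48 in either direction. Rgs9 in place of Adora2a gave 3 members among 22 of 16031 genes called, and Pde10a gave 0 of 16031 genes. Leaving out the 2 libraries farthest from the median of Adora2a gave 0 members among 77 of 16137 genes called in either direction. The counts of members fell to 0 only where CON replicate 2 or GFR4 was left out or where Pde10a was the measure. Drd4 was too low for a test, with 2 to 10 counts in a library.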
